A study of Homo sapiens with 8 samples.

Results

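In HCT116 cells, 237 highly expressed genes carried no m6A peak in any of the 4 peak lists of the experiment. They were taken from the 19475 entries of the FPKM table, where FPKM are fragments scaled to the length of a transcript and to the mapped total of a library. An entry was chosen when its mean over the 4 input libraries was at least 50 FPKM and its symbol was the gene name of no peak. Of 1410 entries at or above 50 FPKM, 345 (24.5%) were named in no list. Symbols starting with RPL, RPS, MRPL, MRPS, NDUF, UQCR, ATP5, COX or PSM took away 105 of these, mainly ribosomal proteins, respiratory chain subunits and proteasome subunits, and 1 entry was a number in place of a symbol. C17orf49 and RRM2 were set aside because the peak lists may hold them under another name, RNASEK-C17orf49 and C2orf48. With the prefix and number exclusions applied to all, 1186 symbols stood at or above 50 FPKM, C17orf49 and RRM2 still among them. The 237 genes made up 19.98% of these, while 769 had a peak in all 4 lists and 178 in 1 to 3 lists. Expression level and absence of a peak chose the genes, so these values are a description and were not tested.

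The study exposed HCT116, an established human colorectal carcinoma line, to Fusobacterium nucleatum at a multiplicity of infection of 100 or to PBS (Control), each for 2 hours, and asked how the bacterium alters N6-methyladenosine (m6A) on mRNA. Poly(A) RNA was fragmented, and fragments bound by an m6A antibody (IP) were sequenced beside unselected ones (input), with 2 libraries per group for each. The methods name the 2 libraries of a group biological replicates of 1 cell line, so the p-values below measure the spread between these libraries only. The groups differed in the bacterium alone as far as the labels give it.

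In mammalian cells m6A is written on nascent mRNA by a METTL3 and METTL14 complex, mostly at an adenosine in GGAC or a related motif. The mark is concentrated in long internal exons, around stop codons and in last exons, and is sparse close to splice junctions, where exon junction complexes are known to keep the writer away. Transcripts of housekeeping genes with short exons are known to carry little m6A. An antibody-based peak call needs enough fragments in both IP and input, so a transcript named in no list is one in which no peak was called, which is not the same as one with no methylated adenosine.

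The 5 genes below are shown because each is highly expressed, lacks a peak and still holds GGAC followed by A, C or T. Beside 4 of them stands a related gene with a peak over such a motif in all 4 lists. Among other relatives named further below, TUBA1A and HSPD1 also had such a motif under peaks in all 4 lists. For KRT8 the best covered motif lay under a peak in 1 list, and for H3F3A in 0. TMSB4X, the relative of TMSB10, had peaks in all 4 lists but no GGAC followed by A, C or T that could be shown in this form. Each line gives 21 bases of the transcript strand, 5′ to 3′, with GGAC in capitals and its A in the middle. For genes without a peak the motif farthest from an exon junction is shown, and for the related gene a motif covered by peaks. Coordinates are on GRCh37 and the sequences come from that assembly with the transcripts of GENCODE release 44.

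For the cytoplasmic actins, the sites lie in the 3′UTR of both, on the minus strand of chromosome 17 (chr17:79477238-79477258) for ACTG1 and of chromosome 7 (chr7:5567154-5567174) for ACTB.
ACTG1, no peak: aagccgtaGGACccagtttcc
ACTB, peak in 4 lists: gtggccgaGGACtttgattgc

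For ferritin, the FTL site is in the 3′UTR on the plus strand (chr19:49470098-49470118) and the FTH1 site in the 5′UTR on the minus strand (chr11:61734964-61734984).
FTL, no peak: caagccttGGACcaaatggaa
FTH1, peak in 4 lists: gcaccctcGGACtgccccaag

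For the cyclophilins, both sites are in the 3′UTR, on the plus strand for PPIA (chr7:44842408-44842428) and on the minus strand for PPIB (chr15:64448076-64448096).
PPIA, no peak: agatgtcaGGACaatctaagc
PPIB, peak in 4 lists: aggcccatGGACtcacttttg

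For lactate dehydrogenase, both sites are in the coding sequence, on the minus strand for LDHB (chr12:21788482-21788502) and on the plus strand for LDHA (chr11:18425296-18425316).
LDHB, no peak: atccagaaGGACctaaaagac
LDHA, peak in 4 lists: agatttagGGACtgataaaga

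TMSB10 is added as the member with the second highest level, with its site in the 3′UTR on the plus strand (chr2:85133704-85133724).
TMSB10, no peak: ccccaatcGGACtgccaaatt

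The motif lay 612 nt from the nearest exon junction in ACTG1, 269 nt in FTL, 1533 nt in PPIA, 152 nt in LDHB and 202 nt in TMSB10. In the peak-bearing genes it lay 359 nt away in ACTB, 191 nt in FTH1, 259 nt in PPIB and 53 nt in LDHA. These sites were picked by different criteria in the 2 kinds of gene, so their distances are not a comparison.

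Set against Control 1, input depth came to 1.11 in the other Control library and to 1.23 and 0.913 in the treated libraries 1 and 2, and the absolute depth, and that of the IP libraries, is unknown. The lists held 17039 to 18365 peaks. No pair of input libraries shared an equal FPKM above 0 for any entry. The markers listed for colorectal epithelium were uneven. EPCAM stood at 162 to 184 FPKM and KRT19 at 1144 to 1233 FPKM. CDH1 was lower, at 11.9 to 13.6 FPKM, and CDX2 lower still, at 2.73 to 3.73 FPKM. The brush border gene VIL1 was listed at 0 in 3 libraries. Of the markers of other cell types, COL1A1 reached 3.78 to 5.72 FPKM and HBA1 2.83 to 3.45 FPKM, while COL1A2, DCN, LUM, CD3E, CDH5 and HBB were listed at 0 in all 4.

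Peaks were not called more often in the most abundant mRNAs. Prefixes and numbers were excluded at every level, while symbols possibly under another name were searched for at 50 FPKM or more only. Among the symbols left, the share named in no list was 67.3% of 2815 entries between 0.05 and 1 FPKM. It was 19.2% between 1 and 5 FPKM and lowest, at 11.4% of 4245, between 5 and 20 FPKM. It was 13.3% between 20 and 50 FPKM and 16.5% of 692 between 50 and 100 FPKM. Above that it was 24.6% of 305 from 100 to 200 FPKM, 22.8% of 123 from 200 to 500 FPKM and 31.2% of 64 at 500 FPKM or more. The share with a peak in all 4 lists was 75.7% between 5 and 20 FPKM, while at 500 FPKM or more it was 32 of 64 entries. The difference between these shares was not tested, since genes are not replicates.

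**Figure D1:**
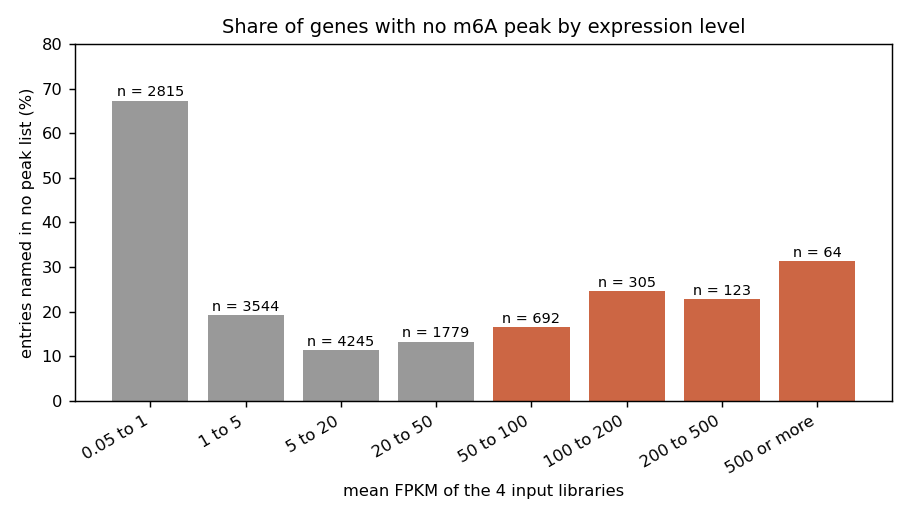
Bars give the percent of entries named in no peak list (vertical axis) in bins of the mean FPKM of the 4 input libraries (horizontal axis). The number of entries stands above each bar, and orange bars hold the 237 genes. Excluded prefixes and numbers are left out throughout, and symbols possibly under another name at 50 FPKM or more only. The share is 11.4% in the bin from 5 to 20 FPKM and 31.2% at 500 FPKM or more.

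Of the 237 genes, 123 had a mean of at least 100 FPKM, 48 of at least 200, 20 of at least 500 and 11 of at least 1000 FPKM, and 222 were at 50 FPKM or more in each of the 4 libraries. Together they held 11.4% and 11.2% of the summed FPKM of the Control libraries and 11.2% and 11.3% of that of the treated libraries. Just inside the threshold stood ABCE1, a ribosome recycling factor, at a mean of 50.03 FPKM, ACAT1 at 50.2 FPKM and DCTN3 at 50.3 FPKM. Just outside it, and also named in no list, stood LRPPRC at 49.9 FPKM, C12orf10 at 49.9 FPKM and NGDN at 49.8 FPKM. None of these was searched for under another name.

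GAPDH, the glycolytic enzyme often used as a reference for RNA amounts, had the highest level of the 237 genes. It measured 5278 and 5013 FPKM in Control and 4898 and 4994 FPKM with F. nucleatum, so the libraries lay close together, with both treated values slightly below both Control values. TMSB10, a small protein that binds actin monomers, measured 3098 and 2909 FPKM in Control and 2748 and 2921 FPKM with F. nucleatum, and the groups overlapped. ACTG1, gamma actin, measured 2463 and 2185 FPKM in Control and 2479 and 2579 FPKM with F. nucleatum. RACK1, a scaffold protein of the small ribosomal subunit, measured 2205 and 2077 FPKM in Control and 2005 and 2044 FPKM with F. nucleatum.

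The next members were of the same order of level and came from unrelated functions. FTL, the ferritin light chain, measured 1917, 1791, 1847 and 1930 FPKM in Control 1, Control 2, F. nucleatum 1 and F. nucleatum 2. In the same order LGALS1, a secreted galectin, measured 1739, 1659, 1740 and 1782 FPKM, and the cytokine MIF 1445, 1235, 1376 and 1424 FPKM. Treated values were above both Control values for LGALS1 and overlapped with them for FTL and MIF. KRT18, the type I keratin of simple epithelia, measured 1462, 1198, 1071 and 1194 FPKM, with Control 1 standing above the rest. EEF1B2, an exchange factor of translation elongation, measured 1118, 1160, 1196 and 1197 FPKM, and NME2, a nucleoside diphosphate kinase, 927, 926, 901 and 927 FPKM. For comparison, the 5 most expressed genes with a peak in all 4 lists were EEF1A1 at a mean of 4524 FPKM, PTMA at 2189, KRT8 at 2152, S100A6 at 1981 and NPM1 at 1677 FPKM, which is the range of the members named here.

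Several members stood beside a close relative that had peaks in every list. The 9 pairs below were chosen after their values were seen, so they illustrate the range of levels and lengths and support no general statement. ACTG1 lay above ACTB in every library: ACTB measured 1038 and 816 FPKM in Control and 959 and 982 FPKM with F. nucleatum, and its peak had a p-value listed as 0 in all 4 lists. The ACTG1 and ACTB transcripts were alike in length, 1919 and 1812 nt, both with 6 exons, and each held 6 GGAC more than 100 nt from a junction. TUBA1B, an alpha tubulin, measured 1116, 1212, 1106 and 1139 FPKM with no peak, and TUBA1A 89.4, 95.6, 99.1 and 104 FPKM with peaks whose lowest p-value was 7.9e-26, 1.6e-36, 1.6e-57 and 1e-33 in the lists of Control 1, Control 2, F. nucleatum 1 and F. nucleatum 2. The less abundant gene of these pairs was thus the one with the peak. TUBA1B and TUBA1A had 4 exons each and 1627 and 1672 nt.

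TMSB10, with the values above, compared with 323, 307, 342 and 348 FPKM for TMSB4X, the other beta thymosin, whose peak had a lowest p-value of 3.2e-82 in Control 1 and 1e-104 in Control 2. FTL compared with 1237, 1087, 1206 and 1247 FPKM for FTH1, the ferritin heavy chain, with a p-value listed as 0 throughout. LDHB, the heart-type lactate dehydrogenase subunit, measured 756, 799, 766 and 767 FPKM, and LDHA 287, 334, 327 and 319 FPKM. In each of these 3 pairs the gene with no peak was higher in all 4 libraries.

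PPIA, cyclophilin A, measured 1131, 1034, 1001 and 1025 FPKM, and the peak-bearing PPIB of the endoplasmic reticulum 632, 575, 585 and 561 FPKM. In both groups PPIA was the higher of the pair. H3F3B, a gene for the replacement histone H3.3, measured 382, 384, 371 and 364 FPKM, and H3F3A, which codes for the same protein, 227, 193, 222 and 238 FPKM. The annotated PPIA and H3F3B transcripts were longer than those of their relatives, 2237 against 893 nt and 2705 against 1070 nt. KRT18 and HSPE1 went the other way in level. KRT8, the keratin partner of KRT18, measured 2286, 2279, 1941 and 2103 FPKM, and HSPD1, the chaperonin that HSPE1 caps, 573, 568, 587 and 576 FPKM against 469, 396, 406 and 434 FPKM for HSPE1. Peaks of another gene on the opposite strand touched exons of H3F3B in 4 lists and of KRT18 in 2. The strand setting of the libraries is not given in the sources used here, so having no peak is less certain for both.

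**Figure D2:**
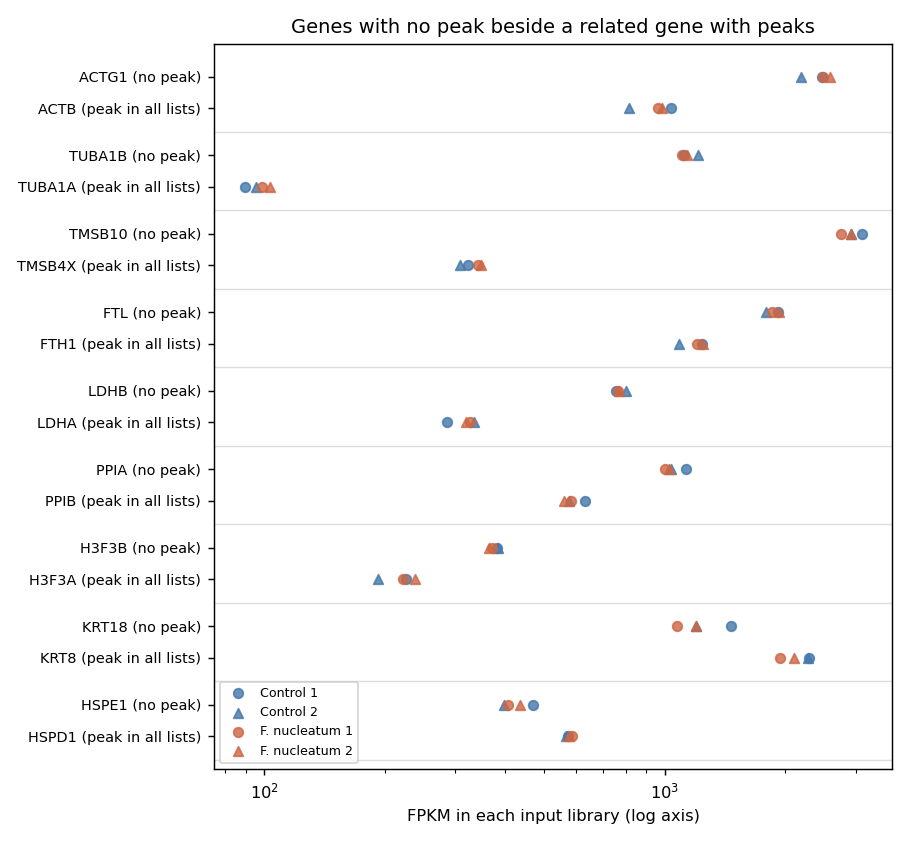
FPKM in each of the 4 input libraries on a log axis for 9 genes with no peak, each drawn over a related gene with a peak in all 4 lists; blue marks Control, orange F. nucleatum, circles replicate 1 and triangles replicate 2. In 7 pairs every value of the gene with no peak is above every value of its relative, and KRT18 and HSPE1 lie below KRT8 and HSPD1. Exons of H3F3B and KRT18 were touched by peaks of another gene on the opposite strand.

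Reads of near-identical copies can be split between a gene and its copies, and how the authors treated such reads is not given in the sources used here. The annotation names 89 processed pseudogenes after PPIA, 67 after KRT18, 64 after GAPDH, 25 after HSPE1 and 21 after ACTG1, so the levels of these genes are less certain. At least 1 such pseudogene was annotated for 38.4% of the members and for 37.03% of the genes with a peak in all 4 lists. Among kept symbols at 50 FPKM or more, the share with no peak was 19.9% of 733 genes with no such pseudogene and 19.6% of 112 genes with 5 or more.

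Members were grouped by function with 19 lists of genes. Glycolysis and the machinery that brings proteins into the endoplasmic reticulum (ER) held the highest shares of members among lists with at least 6 genes at 50 FPKM or more. In glycolysis 7 of 12 such genes were members, 1 had a peak in 1 to 3 lists and 4 in all 4. The members were GAPDH, LDHB, TPI1, PGK1, GPI, PFKP and ALDOC, which act at steps from glucose-6-phosphate isomerase to lactate dehydrogenase. TPI1, triose phosphate isomerase, measured 548, 619, 552 and 575 FPKM in Control 1, Control 2, F. nucleatum 1 and F. nucleatum 2. ALDOA, the more abundant aldolase at a mean of 328 FPKM, missed membership by a peak in the Control 1 list alone, with a p-value of 0.0068.

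In the ER list 11 of 19 genes were members and the other 8 had a peak in all 4 lists. The members cover the Sec61 channel (SEC61B, SEC61G), signal peptidase (SPCS1, SEC11C), the signal recognition particle (SRP9), the translocon-associated complex (SSR4) and oligosaccharyltransferase (DAD1, TMEM258, KRTCAP2, RPN1, RPN2). DAD1 measured 206, 208, 189 and 206 FPKM, TMEM258 198, 204, 186 and 192 FPKM, and SEC61B 163, 146, 145 and 140 FPKM. Their canonical transcripts were 684, 578 and 564 nt long. The median length of the 11 members was 684 nt, against 1113.5 nt for the 8 genes with a peak in all 4 lists.

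Protein folding and redox genes followed. Of 19 genes for prefoldin, chaperonins and peptidyl-prolyl isomerases, 7 were members: PPIA, the prefoldin subunit PFDN5, HSPE1 and the CCT chaperonin subunits CCT8, CCT5, TCP1 and CCT4. PFDN5 measured 469, 446, 469 and 499 FPKM. Of 18 redox genes 7 were members, namely GSTP1, SOD1, GPX4 and the peroxiredoxins PRDX2, PRDX3, PRDX4 and PRDX6. GSTP1, a glutathione transferase, measured 725, 690, 683 and 692 FPKM, SOD1, the cytosolic superoxide dismutase, 628, 606, 626 and 636 FPKM, and PRDX2 252, 253, 243 and 248 FPKM. The values of these genes differed little between libraries. Gene families read off after the values were seen gave 4 of 6 peroxiredoxins with no peak and the other 2 in 1 to 3 lists, 4 of 8 CCT subunits, 5 of 12 subunits of the translation initiation factor EIF3 (EIF3D, EIF3F, EIF3G, EIF3K and EIF3M) and 3 of 8 POLR2 subunits.

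Smaller shares were found elsewhere. Members were 5 of 19 ubiquitin-like and conjugation genes (among them SUMO2, UBL5, UBE2T and ANAPC11), 3 of 11 RNA polymerase genes (POLR2G, POLR2K and POLR2C), 3 of 15 mitochondrial import genes (CHCHD2, ROMO1 and PAM16) and 5 of 30 actin and tubulin genes (TMSB10, ACTG1, TUBA1B, DSTN and ARPC1A). SUMO2, a ubiquitin-like modifier, measured 459, 491, 496 and 487 FPKM, and UBL5, a ubiquitin-like protein that acts in splicing, 283, 265, 270 and 266 FPKM. POLR2G measured 113, 108, 123 and 115 FPKM, POLR2K 102, 99.5, 107 and 105 FPKM and POLR2C 63.1, 66.0, 60.1 and 66.4 FPKM. CHCHD2 measured 471, 465, 471 and 477 FPKM, and ROMO1, a small inner membrane protein, 152, 157, 165 and 166 FPKM. For the genes whose values are given here, the 4 libraries lay close together.

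Members were also 2 of 6 histone genes (H2AFZ and H3F3B), 1 of 3 keratins (KRT18), 1 of 6 metallothionein and iron genes (FTL), 1 of 6 vacuolar ATPase genes (ATP6V0B), 2 of 18 snRNP and LSm genes (SNRPE and SNRPA), 1 of 15 HMG and nuclear chaperone genes (NPM3) and 1 of 15 S100, annexin and calmodulin genes (ANXA5). H2AFZ, the histone variant H2A.Z, measured 545, 544, 500 and 511 FPKM. SNRPE measured 100, 94.3, 90.9 and 93.2 FPKM, and SNRPA 68.5, 64.3, 64.0 and 61.5 FPKM. No member was found among the 6 exon junction complex genes at 50 FPKM or more, of which 3 had a peak in all 4 lists, or in the m6A writer, eraser and reader list, where 1 gene reached 50 FPKM. The snoRNA host list had 1 gene in the table, below 50 FPKM, and no gene of the list of mitochondrial DNA was in it. Against 19.98% of all kept symbols, the share of members was 58.3% in glycolysis, 57.9% in the ER list, 38.9% in the redox list, 36.8% in the folding list and 11.1% in the snRNP list. The lists were chosen with earlier results of these data known, and the differences were not tested.

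The layout of transcripts was not used by the rule, and members differed from genes with peaks in its medians, with wide overlap. All 237 were found in the annotation, 232 by symbol and 5 by a former symbol, and 1 canonical transcript per gene was measured beside 767 genes at 50 FPKM or more with a peak in all 4 lists. All 237 members were annotated as protein coding and none had a single exon. Their median length was 1361 nt (quartiles 895 to 2140 nt), against 2018 nt (1299 to 3068 nt). The coding sequence had a median of 747 nt against 961.5 nt, and the number of exons 7 against 8. The longest exon had a median of 458 nt (277 to 1019 nt) against 891 nt (492 to 1673.5 nt), and the last exon 436 nt against 875 nt. Members were therefore shorter mainly in the last exon and nearly equal in exon number, with quartile ranges that overlapped. The longest internal exon differed less, with a median of 166 nt against 188 nt.

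The part of a transcript more than 100 nt from any exon junction was 451 nt in the median member (204 to 967 nt), or 34.1% of its length, and 923 nt (499.5 to 1760.5 nt), or 51.4%, in the median gene with peaks in all lists. Among the 176 matched genes with a peak in 1 to 3 lists it was 602.5 nt, in between. The same genes were in between in length, at a median of 1547.5 nt, and in longest exon, at 546.5 nt. GC content hardly differed, with medians of 50.9% for members and 50.5% for genes with a peak in all 4 lists.

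GGAC was searched on the transcript strand alone. It was found in every canonical transcript of the members except that of PTRHD1, and it was missing from 0.422% of members, 0.261% of genes with a peak in all 4 lists and 0.508% of the 11021 matched transcripts of all tested genes. Members held a median of 5 GGAC, or 3.59 per kb, against 8, or 4.11 per kb. When only GGAC more than 100 nt from a junction were counted, the medians were 1 and 3. No such GGAC was found in 74 members (31.2%), against 11.6% of the genes with a peak in all 4 lists and 7.64% of all tested genes. The wider motif DRACH (A, G or T, then A or G, then AC, then A, C or T) was less often missing there. No DRACH more than 100 nt from a junction was found in 10 members (4.22%). In genes with a peak in all 4 lists this share was 0.782%, and in all tested genes 0.753%. The median density of DRACH was 18.4 per kb in members and 18.9 per kb in genes with a peak in all 4 lists. Over the whole transcript GGAC was thus nearly as dense in members as in genes with peaks. Counts away from junctions also depend on how many bases lie there, 451 nt against 923 nt in the median. The density of GGAC within that part was not computed. RACK1, LGALS1, MIF, SOD1 and HSPE1 were among members with no GGAC beyond 100 nt from a junction. In that order they held 3, 2, 2, 13 and 4 DRACH there.

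Read the other way, the share of kept symbols at 50 FPKM or more that had no peak differed with these features. It was 44.5% of 128 genes with 1 to 199 nt more than 100 nt from a junction, 25.9% of 270 genes with 200 to 499 nt, 16.1% of 317 with 500 to 999 nt, 12.2% of 262 with 1000 to 1999 nt and 12.9% of 202 with 2000 nt or more. By longest exon it was 43.8% of 105 genes under 250 nt and 14.1% of 192 genes of 2000 nt or more. By GGAC more than 100 nt from a junction it was 35.6% of 208 genes with none, 28.6% with 1, 17.8% with 2 or 3, 11.96% with 4 to 7 and 7.14% of 154 genes with 8 or more. By transcript length it was 34.8% of 23 genes under 500 nt and 13.7% of 249 genes of 3000 nt or more.

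Length and distance from junctions go together, so the share was also taken within ranges of length. Among transcripts of 1000 to 1999 nt, 30.1% of 176 genes with less than 500 nt away from junctions had no peak, against 17.2% of 273 with 500 nt or more. Below 1000 nt the shares were 35.3% of 190 and 14.3% of 35, and at 2000 nt or more 24.2% of 33 and 12.1% of 473. A longer transcript at a given FPKM also yields more fragments for peak calling. FPKM multiplied by length in kb had a median of 159 in members and 193 in genes with a peak in all 4 lists. By this product the share with no peak was 34.1% of 41 genes below 50, 22.5% of 231 from 50 to 100, 18.4% of 386 from 100 to 200, 17.0% of 294 from 200 to 400 and 21.9% of 228 at 400 or more. The part of fragment number in the absence of a peak was not tested.

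Individual members did not all have short exons. The shortest canonical transcripts were those of ROMO1 at 366 nt, BOLA2B at 375 nt and UBL5 at 407 nt, with 83, 77 and 51 nt more than 100 nt from a junction. The longest were NAP1L1, a histone chaperone, at 13159 nt, BUB3, a spindle checkpoint protein, at 7703 nt, and EIF3F at 6920 nt, with last exons that account for most of that length and with 17, 18 and 11 GGAC away from junctions. MYOF, a membrane repair protein named here after its values were seen, was 6860 nt long with 54 exons, of which 601 nt lay away from junctions, and none of its 31 GGAC did. UXT had no base more than 100 nt from a junction. The canonical transcript need not be the one made in HCT116 cells, which was not tested.

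The rule matched peaks by gene name, and position gave a second view of the same lists. Of the 237 members, 236 had no peak of any list on an exon and on their strand. The exception was C1QBP, a mitochondrial protein at 358, 344, 343 and 340 FPKM, whose exons were touched in all 4 lists by a peak named after DHX33, a neighbouring gene on the same strand. The lowest p-value of these peaks was listed as 0. As a check of the matching, 766 of 767 matched genes named in all 4 lists had a peak on an exon in all 4. On the opposite strand, peaks of another gene touched an exon of 17 members, C1QBP included, among them RACK1, KRT18 (peaks named KRT8, in 2 lists), H3F3B (UNK), EIF3G (P2RY11), ANAPC11 (PCYT2), GTF3A (MTIF3), CYSTM1 (PFDN1) and METTL5 (SSB). The strand setting of the libraries is not given in the sources used here, so on which of the 2 genes these peaks lie cannot be told apart.

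Genes named in fewer lists had weaker lowest p-values in the median, which follows at least in part from how they were taken. The lowest p-value was sought over all lists naming a gene, so more lists give more peaks to choose from. The median over genes of the lowest p-value was 7e-05 for 66 genes named in 1 list, 3.5e-07 for 55 genes in 2 lists, 3.5e-10 for 57 genes in 3 lists and 3.2e-87 for 769 genes in all 4. Highly expressed genes kept out of the members by a single list included the translation factor subunit EIF3E at a mean of 532 FPKM, the annexin ANXA1 at 520 FPKM and BTF3 at 507 FPKM, each with a peak in the F. nucleatum 2 list alone. Their lowest p-values, 2e-09 for EIF3E, 7.9e-15 for ANXA1 and 2e-20 for BTF3, were far below the median of the genes named in 1 list. RRM2, the ribonucleotide reductase subunit set aside by the rule, had a mean of 88.0 FPKM and exons touched in all 4 lists by peaks named C2orf48, with a lowest p-value of 1.7e-06.

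The levels of the members with F. nucleatum were compared with Control, which the rule did not use because its mean treats the 4 libraries alike. No member passed the test. The limma test on log2(FPKM + 1) covered 11088 genes, which include all 237 members, and 0 members passed an adjusted p under 0.05. Of all tested genes 89 passed (0.803%), of which 74 were higher (0.667%) and 15 lower (0.135%) with F. nucleatum. At an unadjusted p under 0.05, 30 members passed (12.7%), 12 higher and 18 lower, against 13.5% of all tested genes, 7.04% higher and 6.45% lower. Fold changes below are of F. nucleatum over Control on the log2(FPKM + 1) scale.

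The members moved little. Their median log2 fold change was -0.02 (quartiles -0.08 to 0.06), against 0.01 over all tested genes, and the values ran from -0.41 to 0.38. Quantile normalization turned both signs, to 0.0075 for members and -0.0057 for all tested genes, so no order of the medians can be read from these data. The median size of the change without its sign was 0.07 for members and 0.10 for all tested genes. It was 0.09 for the 769 genes with a peak in all 4 lists and 0.07 for the 178 genes with a peak in 1 to 3 lists. A change of less than 0.25 was seen in 227 of 237 members (95.8%), against 88.0% of all tested genes. Among genes with a peak in all 4 lists the share was 90.6%, and with a peak in 1 to 3 lists 92.7%. Both libraries of one treatment lay beyond both of the other in 122 members, 49 higher and 73 lower with F. nucleatum (51.5%), against 47.2% of all tested genes, 26.1% higher and 21.1% lower. The lean to lower values was shared by the other highly expressed genes. Members were 20.7% higher and 30.8% lower, genes with a peak in all 4 lists 19.6% and 33.7%, and genes with a peak in 1 to 3 lists 15.2% and 29.8%. Of the 769 genes with a peak in all 4 lists, 19 passed the adjusted test, 17 of them higher, and 172 (22.4%) passed the unadjusted one, while of the 178 genes with a peak in 1 to 3 lists 0 and 28 (15.7%) passed. Whether these classes differ in their response was not tested. In the function lists 1 tested gene passed an adjusted p under 0.05, the actin capping gene CAPZB with a log2 fold change of 0.73, which was no member.

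The largest rises among members were small. EREG, epiregulin, a ligand of the EGF receptor, measured 153 and 164 FPKM in Control and 213 and 201 FPKM with F. nucleatum, and the groups did not overlap. Its log2 fold change was 0.38 (SE 0.06), with a limma adjusted p of 0.101. SAT1, the enzyme that acetylates polyamines, measured 491 and 490 FPKM in Control and 589 and 592 FPKM with F. nucleatum, which is the tightest pair of groups among the 5 rises, and its log2 fold change was 0.27 with a limma adjusted p of 0.106. ZYX, the focal adhesion protein zyxin, measured 70.5 and 64.5 FPKM in Control and 80.4 and 87.7 FPKM with F. nucleatum, with a log2 fold change of 0.31. STOML2, a mitochondrial membrane protein, measured 131 and 147 FPKM against 168 and 170 FPKM with F. nucleatum, with a log2 fold change of 0.28. NDRG1, a stress-responsive gene, measured 70.7 and 82.7 FPKM against 90.1 and 93.9 FPKM with F. nucleatum, with a log2 fold change of 0.26. Both treated values were above both Control values in all 5 genes.

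The largest falls were of the same size. BOP1, a ribosome biogenesis factor, measured 98.2 and 90.5 FPKM in Control and 69.7 and 72.5 FPKM with F. nucleatum. Its log2 fold change was -0.40 (SE 0.06), with the lowest limma adjusted p of the members at 0.0970. BOLA2B, an iron-sulphur protein gene with a near-identical copy, had the largest value, -0.41 (SE 0.23), but its groups overlapped, at 68.0 and 58.4 FPKM in Control and 36.7 and 60.3 FPKM with F. nucleatum. The BOLA2B value was -0.06 without F. nucleatum 1 and -0.76 without F. nucleatum 2. PAM16, of the mitochondrial import motor, measured 75.2 and 67.8 FPKM in Control and 57.1 and 53.5 FPKM with F. nucleatum, with a log2 fold change of -0.36. ETFB, an electron transfer flavoprotein, measured 71.4 and 68.4 against 52.8 and 61.8 FPKM, and HGS, an endosomal sorting protein, 123 and 118 against 97.8 and 101 FPKM, with log2 fold changes of -0.29 and -0.28. Apart from BOLA2B, both treated values lay below both Control values in these genes.

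Calls among members depended on which library was left out. Without Control 2, 284 of all tested genes (2.56%) and 8 members passed the limma adjusted p. Among these members, EREG (0.0232), STOML2 (0.0232), SAT1 (0.0354), NDRG1 (0.0354) and the lysosomal gene PSAP (0.0211) were higher, and BOP1 (0.0194), PAM16 (0.0353) and EIF3F (0.0373) lower. Without Control 1, 172 of all tested genes (1.55%) passed and SAT1 was the only member to pass (limma adjusted p 0.0453), and no member passed without F. nucleatum 1 (0.216% of all tested genes) or without F. nucleatum 2 (0.144%). Fewer libraries also leave fewer ways to overlap. Without Control 1, 194 of the 237 members did not overlap, against 75.2% of all tested genes. Without Control 2 it was 205 of the 237, against 79.3% of all tested genes. Without F. nucleatum 1 it was 154 of the 237, against 69.6%, and without F. nucleatum 2 165 of the 237, against 70.3%. With 2 libraries against 2, an exact permutation test cannot give a p below 0.333, so the single-gene statements rest on the spread that limma shares across genes.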

How the data were processed

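The data were 4 input and 4 IP libraries of HCT116 cells, 2 per treatment, grouped by the sample labels. Per the submitters' processing notes and the methods of the study, reads were trimmed with Trim Galore 0.3.3 or cutadapt and aligned to hg19 with HISAT2 2.1.0. The authors computed the deposited FPKM with StringTie from the input libraries. The annotation behind them is not given in the sources used here. Peaks were called per replicate, and the single score in each of the 4 deposited lists was read as the authors' unadjusted p-value of IP against input. The methods name MACS2, whereas the lists have the layout of exomePeak, and which program made them was not settled. All columns of per-sample values were used.

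Members were found by symbol. They were checked against peak position, where touching an exon by at least 1 bp counted. Transcript features and sequences were read from GENCODE release 44 mapped to GRCh37, with the canonical transcript of each gene. For expression, limma 3.58.1 (lmFit, eBayes with trend, R 4.3.3) was run on log2(FPKM + 1) for genes averaging 1 FPKM or more, with Benjamini-Hochberg adjustment over all of them. On simulated data of 11088 genes for F. nucleatum against Control, 99.5% of 200 changes of 1 on the log2 scale were recovered, with 4 false calls. The simulated spread was drawn around 1 common value and did not follow that of each gene. The members changed by -0.41 to 0.38, and how often changes of that size would be recovered was not tested. FPKM give no read counts, so no count model was used. The relative input depth came from the most frequent ratio of values of genes at or below 0.05 FPKM in pairs of libraries. Other steps ran in Python 3.11.15 with pandas 2.3.3.

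The members, function lists and marker lists were chosen with earlier results of these data known. Named members were the 12 of highest mean FPKM, any called by limma, the 5 largest rises and falls, the 3 nearest the threshold on each side, up to 3 of highest FPKM in each function list with at least 2 members, and the 3 longest and shortest transcripts. The 5 genes of highest FPKM with a peak in all 4 lists were named for comparison. Genes named outside this rule are identified by list membership, position or pairing and were chosen after their values were seen. Some results that the rule names are not reported here.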

Additional observations from a re-analysis of the deposited data

How the results depend on the processing

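Of the 237 genes, 222 remained at a limit of 50 FPKM in every library. Limits of a mean of 20 and 100 FPKM gave 473 and 123 genes, peak matching by exon position on the gene's strand gave 242, keeping only peaks with p at most 1e-05 gave 301, and leaving out 1 replicate's list and library gave 249 to 256. Symbols with a mean below 50 FPKM were not searched for under another name. Of the 237 members themselves, 220 had no peak on an exon on either strand. That count was added after seeing the data and selected no genes anew. With the longest coding transcript, the members' median length was 1645 nt and the part over 100 nt from a junction 654 nt, against 2239.5 nt and 1162.5 nt for genes with a peak in all 4 lists, so members were still the shorter.

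In limma, 89 genes and 0 members passed. With no filter on low values 40 genes passed, and the cause was not tested. Leaving out 1 library gave 16 to 284 genes, 0 to 8 members, a median change of the members from -0.0216 to -0.0104 and 154 to 205 members without overlap, against 69.6% to 79.3% of all tested genes, a rise that fewer libraries bring by themselves. A lone sample is there assumed to vary like the other group. The members' median change was 0.0075 after quantile normalization and -0.029 after GC correction, against -0.0183, and the cause was not tested. A pseudocount of 0.1, no trend and the other settings left 0 members called. With the replicate block 90 genes and 0 members passed. The replicate numbers are shared by name only: deviations of same-numbered libraries from their group means had a correlation of 0.0243 over 11088 genes. None of the 10 members with the largest rises and falls reversed direction under any setting run. For all but BOLA2B the groups did not overlap, so leaving out 1 library could not have reversed them. The settings with no filter, with no trend and with the replicate block leave a fold change as it is. Leaving out 1 library gave log2 changes between -0.76 and -0.06 for BOLA2B, and as small as -0.17 for ETFB and 0.15 for NDRG1. The absolute depth is unknown, so whether a missing peak reflects too few fragments could not be measured.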
